A study of Sus scrofa with 4 samples.

Results

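The miR-200 family and miR-216 were followed in small RNA of plasma exosomes, the small vesicles that cells release, from the cord blood of Yorkshire piglets at birth. The 4 libraries came from IUGR artery, normal artery, IUGR vein and normal vein. IUGR, or intrauterine growth restriction, is a failure of the fetus to reach its growth potential, and the normal piglets were littermates. The umbilical artery carries fetal blood to the placenta and the umbilical vein carries blood back from it. Blood was drawn into EDTA, exosomes were pelleted by ultracentrifugation after filtration, and each library was made from a pool of 3 piglets. Each condition and vessel thus had 1 library, and no difference below has a replicate check. Each label names a vessel with the number 1 or 2, and no column carries that number, so the condition of each library rests on a column letter, I taken as IUGR and N as normal. Members were all rows named miR-200a, miR-200b, miR-200c, miR-141, miR-429 or miR-216 with any letter, in any species and from either arm of the hairpin. They numbered 9 of the 664 rows in the tables, of which 6 belonged to the miR-200 family and 3 to miR-216. The members were chosen by name after their raw reads in these libraries, above all those of IUGR artery and normal artery, had been seen, so their levels and ratios are given as a description and with no test.

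The miR-200 family is an epithelial group of microRNAs (miRNAs) that represses the transcription factors ZEB1 and ZEB2 and so keeps epithelial genes such as E-cadherin on. In mammals its genes lie in a pair of clusters, one with miR-200b, miR-200a and miR-429 and one with miR-200c and miR-141. miR-216a, miR-216b and the neighbouring miR-217 are abundant in the acinar cells of the exocrine pancreas. In the RefSeq annotation of the pig assembly Sscrofa11.1, the gene that follows MIR216-1 is MIR217-1. The grouping of the miR-200 genes is taken from other mammals, not from the pig annotation. A miRNA finds its targets mainly through its seed, bases 2 to 8 from the 5′ end.

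The sequences of the rows that carry most of the reads, and of miR-200c and miR-216b beside them, are shown as the deposited tables give them, with T for U, 5′ to 3′ and with the seed in capitals, because the seed separates the members into 4 target groups.
miR-200a, opossum-named row: tAACACTGtctggtaacgatgtt
miR-200b, mouse-named row: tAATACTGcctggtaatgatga
miR-429, pig-named row: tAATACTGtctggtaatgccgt
miR-200c, human-named row: tAATACTGccgggtaatgatgg
miR-216, pig-named row: tAATCTCAgctggcaactgtga
miR-216b, human-named row: aAATCTCTgcaggcaaatgtga

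miR-200b, miR-429 and miR-200c shared 1 seed, and miR-200a differed from it at 1 base. Counted from the 5′ end, the changes in the first 22 bases from miR-200a to miR-200b were C4T, T9C, C17T and T22A, of which C4T lies in the seed. miR-200c and miR-200b differed by G11T and G22A, outside the seed. miR-216b and miR-216 differed by A1T, T8A, A11T and A17C, and T8A gives them different seeds. A second, human-named row of miR-200a held the same 21 bases without the last 2. A second miR-429 row, with an opossum name, differed from the pig-named row by A21G and A22T, and a mouse-named row of miR-216b differed from the human-named one by A22G. No other row of the tables had a member's seed or sequence. No row was named miR-141, and no row came from the 5p arm of the miR-200 family or the 3p arm of miR-216.

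Reads were counted as a share of all reads outside the rows whose names begin with PC-, which the tables use for sequences without a known miRNA name. Reads outside these rows numbered 12327 in IUGR artery, 7527 in normal artery, 7175 in IUGR vein and 35317 in normal vein. The 95% intervals below are exact binomial (Clopper-Pearson) intervals and cover counting error only: without molecular identifiers, PCR copies of 1 molecule are counted as separate reads. Where a library had no read, the limit used is the share of 3 counts, 0.0243% in IUGR artery, 0.0399% in normal artery, 0.0418% in IUGR vein and 0.00849% in normal vein. The IUGR artery library stood apart from the others in its makeup. It was led by miR-122, the main hepatocyte miRNA, with 21.2% of reads, while miR-451 of red blood cells ranked first in the other 3 with 32.0 to 43.2%.

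The miR-200 family took a larger share of reads in the IUGR artery library than in any other. Its rows together held 58 reads in IUGR artery, 3 in normal artery, 3 in IUGR vein and 3 in normal vein. Their share was 0.471% (interval 0.357 to 0.608%) in IUGR artery and 0.0399% (0.00822 to 0.116%) in normal artery. In IUGR vein it was 0.0418% (0.00862 to 0.122%), and in normal vein 0.00849% (0.00175 to 0.0248%). The interval of IUGR artery lay above the other 3 intervals, which overlapped each other. IUGR artery thus held 58 of the family's 67 reads, or 86.6%, and 19.8% of all reads outside PC- rows. At the share seen in IUGR artery, 35.4 family reads would have been counted in normal artery, 33.8 in IUGR vein and 166 in normal vein.

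**Figure D1:**
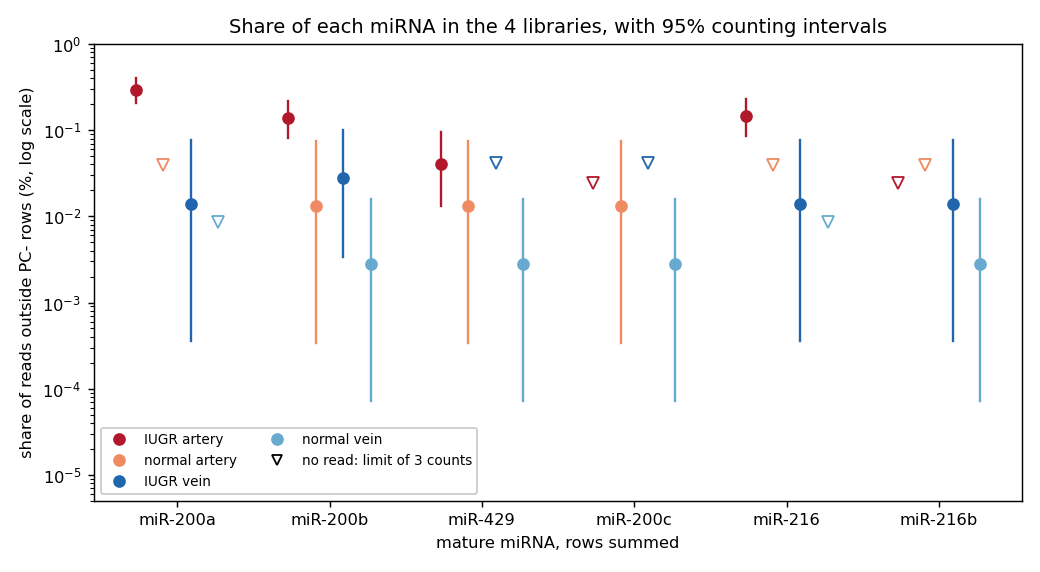
Share of reads outside PC- rows (%, log axis) of each mature miRNA in the 4 libraries, with rows of 1 miRNA summed. Filled points are shares with 95% counting intervals and open triangles mark the limit of 3 counts for a library with no read. The IUGR artery points of miR-200a, miR-200b and miR-216, from 36, 17 and 18 reads, lie above all points and limits of the other libraries, while that of miR-429, from 5 reads, lies just under the limit of IUGR vein.

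In both IUGR libraries all family reads came from the miR-200b, miR-200a and miR-429 cluster, while in each normal library 1 of the 3 was miR-200c. miR-200a, which shares its seed with miR-141, had 36 reads in IUGR artery, none in normal artery, 1 in IUGR vein and none in normal vein. Its share in IUGR artery was 0.292% (0.205 to 0.404%), and it ranked 57th of 220 named miRNAs with a read there. Of its 36 reads, 35 lay in the opossum-named row and 1 in the shorter human-named row. miR-200b, the cluster's first member, had 17 reads in IUGR artery, 1 in normal artery, 2 in IUGR vein and 1 in normal vein, or 0.138% (0.0804 to 0.221%) in IUGR artery. miR-200b had at least 1 read in every library, whereas miR-200a was read in both IUGR libraries and in neither normal one. A single read in IUGR vein sets that last difference there.

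miR-429, the third member of the cluster, had 5 reads in IUGR artery, 1 in normal artery, none in IUGR vein and 1 in normal vein. Its intervals overlapped between the artery libraries, at 0.0132 to 0.0946% in IUGR artery and 0.000336 to 0.0740% in normal artery. miR-200c, of the other cluster, went the other way in read numbers, with none in IUGR artery, 1 in normal artery, none in IUGR vein and 1 in normal vein. These few reads set no order between the libraries. Of the 58 family reads in IUGR artery, miR-200a made up 62.1% (48.4 to 74.5%), miR-200b 29.3% (18.1 to 42.7%) and miR-429 8.62% (2.86 to 19.0%). miR-200c made up none of the 58, with an interval that reached 6.16%. By seed, the group of miR-200a held 36 reads in IUGR artery and the group of miR-200b, miR-429 and miR-200c 22, against none and 3 in normal artery.

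miR-216 also had most of its reads in IUGR artery. The pig-named row had 18 reads in IUGR artery, none in normal artery, 1 in IUGR vein and none in normal vein. Its share in IUGR artery was 0.146% (0.0866 to 0.231%), and it ranked 73rd of the 220 named miRNAs. miR-216b, encoded beside it in mammals, had no read in either artery library, 1 in IUGR vein and 1 in normal vein, each in a different row. At the share of miR-216 in IUGR artery, 10.99 reads would have been counted in normal artery, 10.5 in IUGR vein and 51.6 in normal vein.

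Between IUGR and normal in artery, the summed family was 11.8-fold higher in IUGR artery, with a 95% interval of 3.84 to 58.9. miR-200a was at least 7.33-fold and miR-216 at least 3.66-fold higher there, both against 3 counts in normal artery. The exact intervals of these ratios, against no read, start lower, at 5.66 for miR-200a and 2.68 for miR-216. miR-200b was 10.4-fold higher, with an interval of 1.63 to 434, and miR-429 had a ratio of 3.05 with an interval of 0.342 to 144.4. In plasma exosomes, more vesicles from a tissue and more of a miRNA per vesicle cannot be told apart. Changes were frequent between these libraries: of 127 rows outside PC- with at least 10 reads over both, 82.7% differed by 2-fold or more, 41.7% of them upward in IUGR artery and 40.9% downward, all as shares of the 127. Of the 9 member rows, 3 had enough reads to be counted, and all 3 were higher, a direction that their choice had fixed. The median log2 ratio of the 127 rows was 0.40. The 53 higher and 52 lower rows became 40 and 60 when erythroid miRNAs were left out of the denominator. With median ratio scaling they became 60 and 46. Among 92 rows with at least 10 reads in IUGR artery, 5 had none in normal artery. miR-200a and miR-216 were among these 5, but they were chosen with these reads known, so nothing is read from their place. The others were rows named miR-460 and miR-15c and an opossum-named row of miR-210, whose pig-named row had 34 reads in IUGR artery and 9 in normal artery.

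Between IUGR and normal in vein, too few reads were counted to give the direction of a member. The family had 3 reads in IUGR vein and 3 in normal vein, a ratio of shares of 4.92 with an interval of 0.659 to 36.8. miR-200b stood at a ratio of 9.84 with an interval of 0.513 to 581, from 2 reads in IUGR vein and 1 in normal vein. miR-216 and miR-216b together had the same reads, 2 in IUGR vein and 1 in normal vein, and thus the same ratio. No member row reached 10 reads over the vein libraries. There, 43.5% of 154 rows differed by 2-fold or more, with 22.7% of the 154 upward in IUGR vein and 20.8% downward. That balance depended on the scaling: the 35 higher and 32 lower rows became 10 and 68 with PC- rows in the denominator and 15 and 56 with median ratio scaling. It also rests on the 3 counts set for a library with no read, a larger share in IUGR vein than in the deeper normal vein. A row with no read in IUGR vein and 11 in normal vein was thus set at a ratio of 1.34, and not counted as lower.

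Between artery and vein of normal piglets the family had 3 reads in each library, and the ratio of 4.69 for artery over vein had an interval of 0.628 to 35.03. No member row reached 10 reads there, while 41.4% of 157 rows differed by 2-fold or more, with 29.3% of the 157 upward in normal artery and 12.1% downward. The direction turned with PC- rows in the denominator, where the 46 higher and 19 lower rows became 26 and 47. It also turned with median ratio scaling, at 16 and 65. Without erythroid miRNAs 35 were higher and 28 lower, so higher rows stayed more numerous. Here too the 3 counts set for a library with no read enter the balance. A row with no read in normal artery and 10 in normal vein was set at a ratio of 1.41. Between artery and vein of IUGR piglets, a comparison that shares the IUGR artery library with the first one, the family was 11.3-fold higher in artery, with an interval of 3.66 to 56.1. miR-200a had a ratio of 20.95 (3.53 to 850), miR-216 of 10.5 (1.65 to 437) and miR-200b of 4.95 (1.17 to 44.1). Without erythroid miRNAs in the denominator the family had 5.27 (1.72 to 26.3) and miR-200a 9.81 (1.65 to 398), while the intervals of miR-216, at 4.90 (0.774 to 204), and miR-200b, at 2.32 (0.550 to 20.7), included 1. Here 3 member rows were counted and all 3 were at least 2-fold higher in artery, beside 40.3% of all rows with at least 10 reads. These 3 rows reached 10 reads through IUGR artery, where they were known to be high, so nothing is read from their count. Another 38.7% were lower, so that 79% differed by 2-fold or more. The 50 higher and 48 lower rows became 64 and 35 with median ratio scaling and 35 and 59 without erythroid miRNAs in the denominator. The protocol does not say whether artery and vein blood of a condition came from the same 3 piglets.

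**Figure D2:**
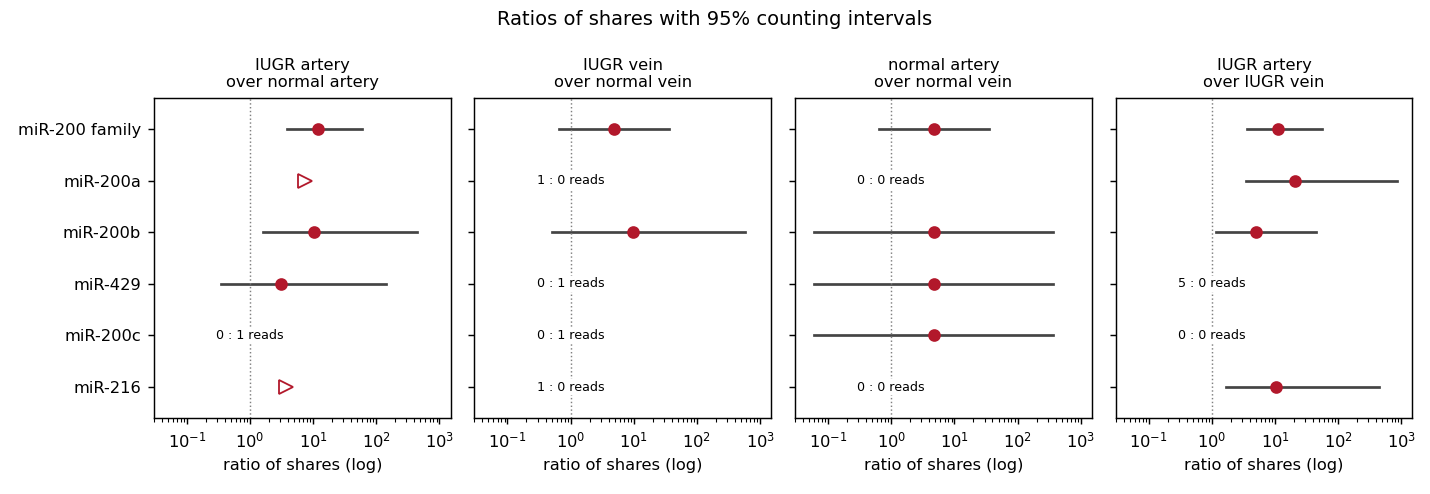
Ratio of shares (log axis) in the 4 comparisons for the summed family and single miRNAs. Points are ratios, lines their 95% counting intervals and open triangles lower bounds against 3 counts, while text gives the reads of both libraries where neither a ratio nor a bound above 1 could be set. The family is 11.8-fold higher in IUGR artery than in normal artery and 11.3-fold higher than in IUGR vein, and the other 2 family intervals include 1.

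**Figure D3:**
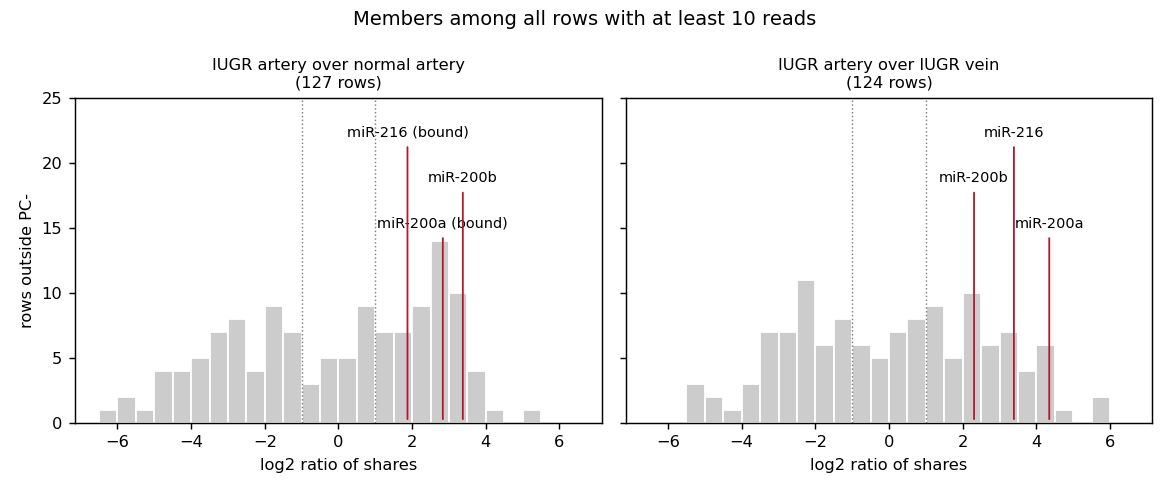
Number of rows outside PC- by log2 ratio of shares for IUGR artery over normal artery (127 rows) and over IUGR vein, with the 3 member rows that reached 10 reads marked. Dotted lines mark 2-fold changes; the members lie among the many rows that are at least 2-fold higher in IUGR artery, 41.7% and 40.3% of all.

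The library profile of the family was most like those of miR-122, miR-192 and miR-215, with miR-29b and miR-30e-5p close behind. A profile is the share in each of the 4 libraries divided by the sum of the 4 shares, and 2 profiles were compared by their overlap, the sum of the smaller value in each library. The family's profile was 83.9% IUGR artery, 7.11% normal artery, 7.46% IUGR vein and 1.52% normal vein. Among all named miRNAs with at least 20 reads over the 4 libraries, the most alike was miR-122, with an overlap of 99.0%. miR-192 and miR-215, miRNAs of liver and gut whose rows share 1 sequence and so most of their reads, followed with 98.0 and 97.7%. miR-29b, a repressor of collagen genes, had 96.7% and miR-30e-5p 96.6%, while the median over all those compared was 30.3%. The overlap is a description over 4 libraries, and the 3 lower values of the family rest on 3 reads each. Any miRNA with most of its share in IUGR artery overlaps highly with the family, which was chosen with its reads there known. No tissue is read from the overlap.

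For miR-216 and miR-216b together the profile was 82.6% IUGR artery, none in normal artery, 15.8% IUGR vein and 1.60% normal vein. Its overlap with the profile of the miR-200 family was 91.6%. The most alike of them were a platypus-named row of miR-16c-5p, with 91.6%, miR-122 with 90.7%, miR-192 with 90.3%, miR-215 with 89.9% and miR-98, a let-7 relative, with 89.6%. The median over all compared was 32.3%, and the same limits hold here.

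**Figure D4:**
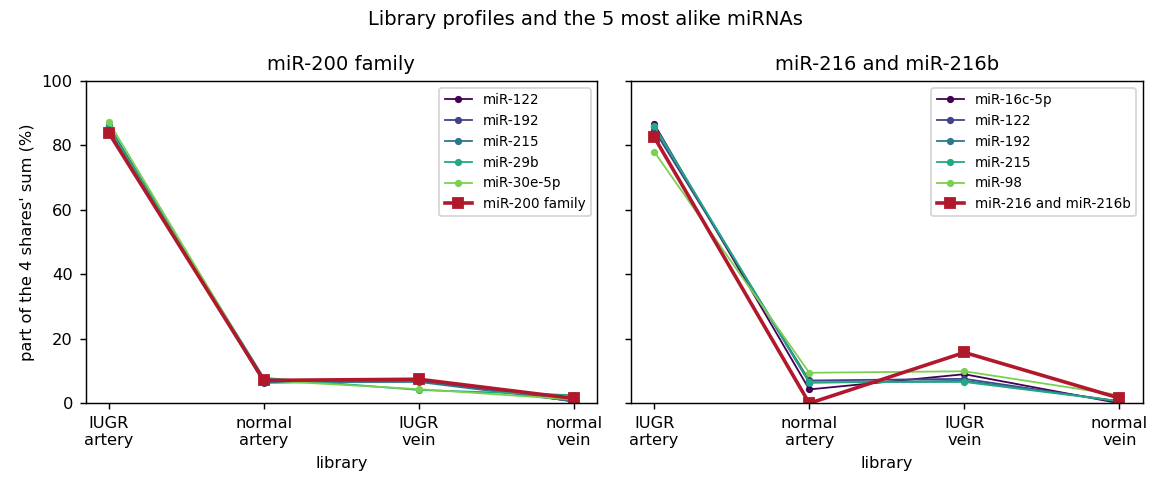
Profile of the miR-200 family (left) and of miR-216 with miR-216b (right) over the 4 libraries, as a percentage of the sum of the 4 shares, with the 5 most alike named miRNAs of each. The lines of the family and of miR-122 nearly coincide, at 83.9 and 84.8% in IUGR artery.

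The epithelial miRNAs listed here, outside the family and the liver and gut list below, were scarce in all libraries. The list of miR-203, miR-205, the miR-183, miR-182 and miR-96 cluster, miR-31, miR-34b and miR-34c had 4 reads in IUGR artery, 4 in normal artery, 8 in IUGR vein and 17 in normal vein. That was 0.0324% (0.00884 to 0.0831%), 0.0531% (0.0145 to 0.136%), 0.112% (0.0481 to 0.220%) and 0.0481% (0.0280 to 0.0771%) of reads, in the same order. None of its 9 rows reached 10 reads over the artery libraries. miR-205, a miRNA of stratified epithelium, had no read in IUGR artery, 1 in normal artery, none in IUGR vein and 2 in normal vein. miR-203a, a skin miRNA, had 1 read in IUGR artery, none in normal artery, 5 in IUGR vein and 10 in normal vein.

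Of the pancreatic list, miR-217, the neighbour of miR-216, had 7 reads in IUGR artery and none in the other 3 libraries. Against 3 counts in normal artery that is at least 1.42-fold higher in IUGR artery, although its counting interval starts at a log2 ratio of -0.18. miR-375, a miRNA of pancreatic islets and other endocrine cells, had 9 reads in IUGR artery, 1 in normal artery, 3 in IUGR vein and none in normal vein. Its ratio in artery was 5.50, with a log2 interval of -0.39 to 7.91. miR-148a, which is abundant in pancreas but also in liver and blood, held most of the list's reads, at 1.15% in IUGR artery, 1.02% in normal artery, 1.90% in IUGR vein and 1.62% in normal vein. miR-7, an islet miRNA, had 1 read in IUGR artery, 0.5 in normal artery, none in IUGR vein and 2.5 in normal vein. Of 5 rows in the list, 2 reached 10 reads over the artery libraries, 1 of them at least 2-fold higher in IUGR artery and none lower. Of all counted rows, 41.7% were higher and 40.9% lower.

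Between the artery libraries some marker lists moved with the members, above all that of liver and gut. Others, such as the erythroid, platelet and myeloid, lymphoid and striated muscle lists, went the other way in summed share. The liver and gut list, led by miR-122, held 32.8% of reads in IUGR artery, 2.66% in normal artery, 2.66% in IUGR vein and 0.212% in normal vein. All 7 of its 12 rows that reached 10 reads were at least 2-fold higher in IUGR artery than in normal artery, with a median log2 ratio of 3.58. Of all counted rows, 41.7% were higher. The 7 rows are not separate miRNAs: the pig-named miR-192 and miR-215 rows held equal reads, as did the miR-194a and miR-194b rows. Set against this list, the family had 1.44 reads per 100 list reads (1.09 to 1.86) in IUGR artery and 1.5 (0.307 to 4.45) in normal artery. In IUGR vein it had 1.57 (0.321 to 4.66), and in normal vein 4.00 (0.807 to 12.1). All 4 intervals overlapped, and the ratio of IUGR artery to normal artery on this scale was 0.958, with an interval of 0.312 to 4.78. miR-216 and miR-216b had 0.446 reads per 100 list reads in IUGR artery (0.264 to 0.705), none of 200 in normal artery, 1.05 in IUGR vein (0.126 to 3.83) and 1.33 in normal vein (0.0333 to 7.66). The part of liver and gut material in the members' difference was not tested.

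**Figure D5:**
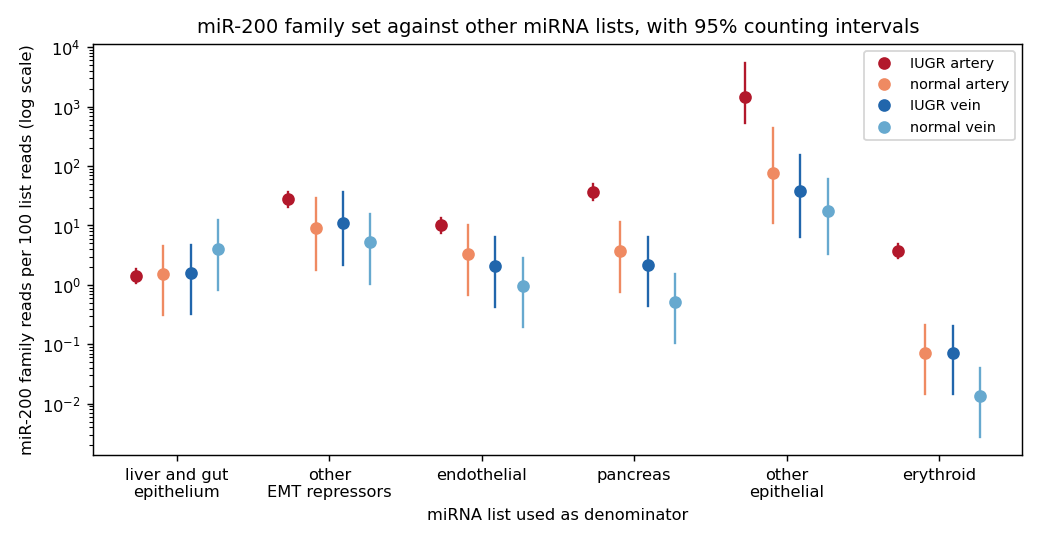
Reads of the miR-200 family per 100 reads of 6 other miRNA lists (log axis) in the 4 libraries, with 95% counting intervals. Against the liver and gut list the 4 libraries lie between 1.44 and 4.00 with overlapping intervals; against the erythroid list IUGR artery stands at 3.70, above 0.0719 in normal artery.

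The erythroid list, led by miR-451, ran the other way in its summed share. It held 12.7% of reads in IUGR artery, 55.4% in normal artery, 59.1% in IUGR vein and 62.6% in normal vein. Its rows were not uniform: between the artery libraries 12 were counted, of which 9 fell by 2-fold or more and 2 rose. Those that rose were miR-363, with a ratio of 4.64 from 38 reads against 5, and miR-16c-5p, with 20.2 from 33 against 1. This miR-16c-5p is the row whose profile was most like that of miR-216 with miR-216b. A smaller erythroid share raises the shares of all other rows, so the family's ratio was also computed without erythroid miRNAs in the denominator. IUGR artery over normal artery then gave 6.03 for the family, and 9.08 with the liver and gut list left out as well. For miR-216 the bounds against 3 counts were 1.87 and 2.82, and for miR-200a 3.74 and 5.63. Their exact intervals start lower, at 1.37 and 2.06 for miR-216 and at 2.89 and 4.35 for miR-200a. miR-200b had 5.30 without erythroid miRNAs, with an interval of 0.831 to 221.6 that included 1. The family's interval was 1.96 to 30.1 without erythroid miRNAs.

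Other miRNAs that restrain the epithelial to mesenchymal transition, the change of cell state that the miR-200 family opposes, were listed beside it. Of their 9 rows, 3 reached 10 reads over the artery libraries, 2 of them at least 2-fold higher in IUGR artery and 1 lower. Of all counted rows, 41.7% were higher and 40.9% lower, so nothing is read from so few. The median log2 ratio of the 3 rows, 2.66, is that of miR-101. miR-101, a repressor of EZH2, had 150 reads in IUGR artery, 14.5 in normal artery, 14 in IUGR vein and 24 in normal vein. Its share was 6.32-fold higher in IUGR artery than in normal artery, with a log2 interval of 1.92 to 3.62. The 3p strand of miR-30a was 7.02-fold higher, with 46 reads in IUGR artery and 4 in normal artery, while its 5p strand had 3 reads in IUGR artery and 12 in normal artery. miR-34a had 6 reads in IUGR artery, 2 in normal artery, 3 in IUGR vein and 2 in normal vein.

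The remaining lists are given by their summed share. Endothelial miRNAs held 4.67% in IUGR artery, 1.19% in normal artery, 1.98% in IUGR vein and 0.895% in normal vein. Platelet and myeloid miRNAs held 2.12, 5.96, 4.82 and 7.16% in the same order, and lymphoid miRNAs 0.130, 0.465, 0.237 and 0.844%. Smooth muscle and mesenchymal miRNAs held 3.68, 2.02, 5.26 and 1.94%, striated muscle miRNAs 0.112, 0.345, 0.325 and 0.325%, and neural miRNAs 0.110, 0.113, 0.0697 and 0.115%. Of these lists, the endothelial one alone had its highest share in IUGR artery, and the family stood at 10.1 reads per 100 endothelial reads (7.55 to 13.2) in IUGR artery and 3.35 (0.682 to 10.17) in normal artery.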

How the data were processed

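Small RNA libraries of 4 exosome pools were prepared by TruSeq chemistry for small RNA and sequenced from 1 end for 36 bases, per the labels' protocols. The submitters' processing notes name the pig build Sscrofa 10.2. No aligner, counting tool or scaling method is given in the sources used here. Deposited by the authors were 4 tables of 2 libraries each. The deposited columns headed raw are estimated counts, as some values are fractions and rows of 1 sequence share reads. Their normalized columns hold a signal, the deposited raw reads times 1 factor per library, 3.18 for IUGR artery, 5.89 for normal artery, 4.70 for IUGR vein and 1.90 for normal vein.

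Columns were tied to the vessel by the tables' names and to the condition by the letters I and N. Tables were joined by name and sequence. Values of a library were equal in both of its tables, and a library with no entry for a row was set to 0. The normalized columns of a library were taken from 1 of its tables, and the 4 repeats were not used. PC- rows, 83 of 664, were left out of the denominator and held 38.8, 45.3, 55.8 and 13.2% of reads in IUGR artery, normal artery, IUGR vein and normal vein. Shares have exact binomial intervals and ratios exact conditional binomial intervals at 95%, on reads rounded to whole numbers (scipy 1.17.1, Python 3.11.15). With 1 library per condition and vessel no test was made. The ratio interval was tested on simulated reads, for rows with at least 10 reads over 2 libraries. It was not tested on fewer reads, and the share interval was not tested. A ratio against a library with no read is a bound against 3 counts; none is given where 1 library has no read and the other at most 3. Ratios of 1 to 3 reads are printed with their interval only to show how wide it is.

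Rows counted as changed had at least 10 reads over 2 libraries and differed at least 2-fold. Every member with a read is named; of other miRNAs, the 5 with the most alike profiles to each group, the leading miRNA of each library and members of 11 marker lists. These lists were other epithelial, pancreas, liver and gut, erythroid, platelet and myeloid, lymphoid, endothelial, smooth muscle and mesenchyme, striated muscle, neural, and other repressors of the epithelial to mesenchymal transition. Members and lists were chosen with earlier results of these data known. The miR-210, miR-460 and miR-15c rows were named after their values were seen. Alternatives changed the denominator, the zero handling, the rows summed and the read minimum.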

Additional observations from a re-analysis of the deposited data

How the results depend on the processing

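No paired analysis was possible because each condition and vessel had 1 library and the columns carry no replicate number; for the same reason no library could be left out of a comparison. Of the recomputed ratios of the summed groups and counts of changed rows under planned settings, 71 stayed within the counting interval, or within 1.5 times the count, and 5 moved. Many of these intervals are so wide that staying inside says nothing of stability: the family's artery ratio was 11.8 as reported and 6.03 without erythroid miRNAs, and the artery bound of miR-216 was 3.66 against 3 counts and 10.99 against 1. With pig-named rows only, the family is reduced to miR-429 and had a ratio of 2.44 for IUGR artery over normal artery and a bound of 0.776 over IUGR vein. Without erythroid miRNAs in the denominator the bound of miR-216 in artery was 1.87, with an exact interval that starts at 1.37. With no read minimum, 140 of 420 rows were counted as 2-fold apart between the vein libraries and 154 of 464 between the vessels of normal piglets. The reported numbers are 67 of 154 and 65 of 157. Of the 140 and 154 rows, 108 and 135 were counted as higher. A row absent from IUGR vein or normal artery can be among these, because 3 counts there are a larger share than a few reads in the deeper normal vein. For miR-30a-3p, with no read in IUGR vein and 5 in normal vein, the ratio was set at 2.95.

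With the liver and gut list as denominator, a setting chosen after seeing the data, the family's ratios were 0.958 (IUGR over normal, artery), 0.393 (IUGR over normal, vein), 0.375 (artery over vein, normal) and 0.914 (artery over vein, IUGR). For miR-216 with miR-216b the artery bound was 0.297 and the ratio of artery over vein in IUGR 0.426. miR-200b had 0.842 in artery and 0.402 for artery over vein in IUGR, and for artery over vein in IUGR miR-216 alone had 0.851 and miR-200a 1.70 (0.287 to 69.1). The cause was not tested.

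Scaling moved the median log2 ratio of all rows, which also rests in part on the 3 counts set for a library with no read. For IUGR over normal in vein it was 0.10 as reported, -0.87 with PC- rows in the denominator and -0.61 with median ratio scaling. For artery over vein in normal piglets it was 0.11, -0.55 and -0.77 in the same order, and -0.14 without erythroid miRNAs. With 3 family reads in each of 3 libraries, these libraries cannot be ordered at this depth.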
